A study of Mus musculus with 6 samples.

Results

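The clustered protocadherins are cell surface adhesion proteins of the cadherin superfamily, encoded by the alpha, beta and gamma gene clusters, which lie side by side on mouse chromosome 18. All genes whose Ensembl identifier carries a symbol of these clusters in GENCODE M21 were taken, which gave 58 of the 49315 genes counted: 14 in the alpha cluster, 22 in the beta cluster and 22 in the gamma cluster. Membership rests on the symbol alone, but the family was picked out after Pcdhac2 was known to be among the transcripts with the largest falls in these lines, so the differences between genotypes given below are descriptions.

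RNA was measured by poly(A)-selected sequencing in 6 lines of mouse embryo fibroblasts at passage 4, of strain C57BL/6, untreated. The SG lines (SG1, SG2 and SG3) were homozygous for MDMX-SG, a knock-in allele of the p53 inhibitor MDMX with the substitutions W201S and W202G, which disrupts its binding to the kinase CK1-alpha. The WT lines (WT3, WT9 and WT11) carried wild-type MDMX, and all 6 lines lacked p53. Each line was grown from a single embryo, so n = 3 embryos per genotype, and the study asked which transcripts the MDMX mutation affects.

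In neurons, each clustered protocadherin isoform starts from its own promoter and its own large first exon, which encodes the whole outer part of the protein. Transcripts of the alpha and gamma clusters are then spliced to constant exons shared by the cluster, whereas beta genes consist of a single exon. Single neurons switch on a few isoforms apparently at random, through DNA methylation and through loops that CTCF and cohesin form between promoters and enhancers, and the resulting combinations let a neuron recognise its own branches. The C-type isoforms (Pcdhac1, Pcdhac2, Pcdhgc3, Pcdhgc4 and Pcdhgc5) lie next to the constant exons and are regulated apart from the others.

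Total counts lay between 49317925 (WT3) and 65457242 (WT9) per line, and SG1 and WT9 were the only lines with Xist above 10 CPM (counts scaled to library size). All 10 fibroblast and mesenchyme markers examined, such as Col1a1 and Vim, were present, with a summed level of 23220 to 25860 CPM in SG lines and 22250 to 22950 CPM in WT lines. Of these 10, edgeR called Fn1 higher in SG (log2 fold change 0.40) and Thy1 and S100a4 lower (-0.72 and -0.99), against 1.90% of all tested genes called. DESeq2 called 5, against 6.17% of all genes with an adjusted p there. All 3 edgeR calls were lost without SG2 (adjusted p = 0.122 for Fn1, 0.063 for Thy1 and 0.169 for S100a4), and those on Fn1 and S100a4 also without SG1 (0.0569 and 0.0539), WT3 (0.129 and 0.141) or WT11 (0.0993 and 0.133). With a robust prior the adjusted p of S100a4 was 0.104. Summed epithelial markers (6 genes) lay at 14.5 to 27.8 CPM in SG lines and 9.58 to 16.8 CPM in WT lines, and summed endothelial markers (4 genes) at 50.97 to 71.4 CPM in SG lines and 39.1 to 53.3 CPM in WT lines, with Epcam, Cdh1, Pecam1 and Cdh5 under 0.5 CPM in every line. All 4 tested epithelial markers had log2 fold changes above 0, up to 2.33 for Krt14, and 0 passed in edgeR (2 with an unadjusted p under 0.05, and 1 in DESeq2). Krt5 stood at 2.94 and 1.68 CPM in SG1 and SG2 and had 0 reads in SG3 and every WT line. Kdr, at 49.9 to 70.5 CPM in SG lines and 38.1 to 51.9 CPM in WT lines, made up nearly all of the endothelial sum, and 0 of 3 tested endothelial markers passed in edgeR (1 with an unadjusted p under 0.05, and 1 in DESeq2). Over all tested genes, 15.5% had an unadjusted p under 0.05.

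The exon positions in the count files show how much of each gene can be counted. All 14 alpha genes shared a stretch of 2860 bp at their 3′ end and all 22 gamma genes a stretch of 2116 bp, while beta genes shared no such stretch. Reads in shared exons were for the most part credited to no gene. All 203 genes longer than 300 bp that were wholly covered by exons of the opposite strand alone had 0 reads in every line, although 59.3% of genes free of overlap had reads. Of 146 genes longer than 300 bp with no base of their own on their strand, 105 had no reads and 41 had some. The counts of alpha and gamma members are thus taken to come mainly from their first exons, and a level per length below is CPM divided by the kilobases of exon that no other gene covers (unique kb). That unique part was 51.4% of Pcdhac2 and 33.1% of Pcdhgc3, where an antisense transcript removes a further stretch, and 0% of Pcdhga10, which still held 41 to 71 reads per line and is given no level per length.

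**Figure D1:**
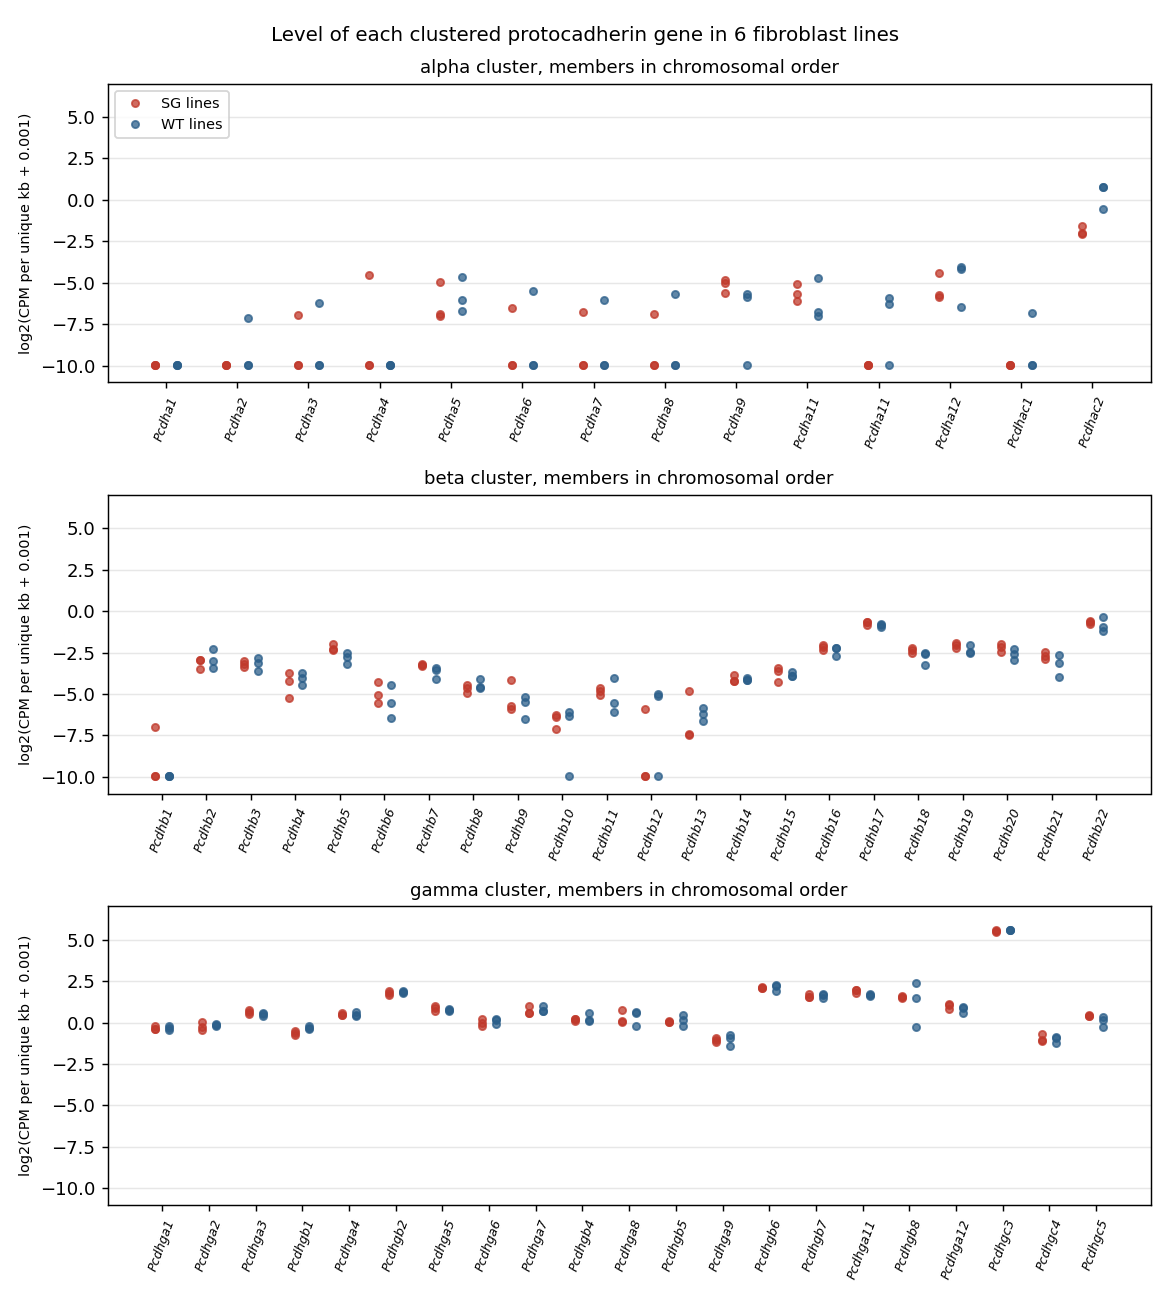
Level of each member with a unique exon in SG lines (red, left) and WT lines (blue, right), as log2 of CPM per unique kb plus 0.001, in chromosomal order. Every gamma gene shown stands above the first 15 beta genes, Pcdhgc3 stands highest, and in the alpha cluster Pcdhac2 stands above the other 13 genes.

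The 3 clusters differed widely in level, and the gamma cluster carried nearly all of the reads. Gamma members held 91.5% ± 0.369 of all clustered protocadherin counts in SG lines and 90.9% ± 0.519 in WT lines (SD, n = 3 each). Beta members held 7.96% ± 0.291 in SG and 6.85% ± 1.23 in WT lines. The alpha cluster held 0.549% ± 0.0912 in SG and 2.21% ± 0.777 in WT lines.

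Apart from Pcdhac2, the alpha cluster was close to silent. Its 13 other members together had 19, 9 and 13 reads in SG1, SG2 and SG3, and 9, 31 and 10 reads in WT3, WT9 and WT11. No such member reached more than 7 reads in a line, and none passed the filter on low counts, so no change in them was testable at this depth. Pcdha1 had 0 reads in all 6 lines, and a count of 0 allows a level of up to 0.0085 CPM over the 6 lines (3 reads, counting error only). The next alpha genes per length after Pcdhac2 were Pcdha12, with 5, 2 and 2 reads in SG and 1, 7 and 7 reads in WT lines, and Pcdha9, with 4, 3 and 5 reads in SG and 2, 3 and 0 reads in WT lines. Pcdhac1, the other C-type gene of this cluster, had 1 read in WT3 and none elsewhere.

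Pcdhac2 (ENSMUSG00000102697, GRCm38 chromosome 18, 37143503 to 37187657), the C-type alpha isoform that in mice acts in the spacing of serotonergic axons, was lower in every SG line than in any WT line. The lines of SG and WT did not overlap in 21.2% of all tested genes either. It had 42, 45 and 58 reads in SG1, SG2 and SG3, against 253, 133 and 308 reads in WT3, WT9 and WT11. Scaled for library size these were 0.761, 0.705 and 0.993 CPM in SG, against 5.06, 2.03 and 5.13 CPM in WT lines. The SG lines lay close together, while WT9 lay below the other WT lines and nearer to SG. The log2 fold change was -2.31 with a standard error (SE) of 0.37. In edgeR's quasi-likelihood test over 16068 genes its adjusted p was 0.0295, and 1.10% of all tested genes were called lower in SG. Among the first exons annotated for the members, that of Pcdhac2 shared no stretch of 50 bases with another.

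The call on Pcdhac2 was lost in edgeR without SG2 (adjusted p = 0.138), SG3 (0.0517), WT3 (0.112) or WT11 (0.111), with log2 fold changes of -2.21, -2.47, -2.12 and -2.10. In these 4 fits the share of all tested genes called was 0.0184%, 1.35%, 0.146% and 0.177%, against 1.90% with all lines. The call was kept without SG1 (0.043) or WT9 (0.00289). Leaving out both lines that expressed Xist gave a log2 fold change of -2.59 (edgeR adjusted p = 0.00193). In bulk RNA, fewer cells with a transcript and less transcript per cell cannot be told apart. Tested neural markers had log2 fold changes both below and above 0. The summed level of 12 neuron markers was 113.9 to 122.1 CPM in SG and 132.4 to 142.7 CPM in WT lines. Tubb3, Gap43, Map2 and Stmn2 made up most of this sum, and Rbfox3, Elavl3 and Dcx were under 0.5 CPM in every line. In edgeR 0 of 9 tested neuron markers passed the threshold (6 with an unadjusted p under 0.05, and 3 in DESeq2). Of the 9, 7 had log2 fold changes below 0 and 2 above, and the smallest p of the list was that of Elavl4, at 8.34 CPM on average in SG lines, against 4.84 CPM in WT lines (log2 fold change 0.79, adjusted p = 0.0609 in edgeR). Sox2, a neural progenitor factor, stood at 0.217, 0.423 and 0.496 CPM in SG1, SG2 and SG3, against 4.08, 0.596 and 3.90 CPM in WT3, WT9 and WT11, with WT9 again the lowest WT line. Its log2 fold change was -2.89 (adjusted p = 0.09 in edgeR). The summed level of 10 progenitor and glial markers was 405.4 to 432.5 CPM in SG and 261.4 to 347.8 CPM in WT lines. Nes, with a log2 fold change of 0.51 (adjusted p = 0.0521 in edgeR), had the smallest p of the tested markers and made up most of this sum. It stood at 418.7, 429.8 and 402.1 CPM in SG1, SG2 and SG3, against 279.9, 344.6 and 254.8 CPM in WT3, WT9 and WT11. Pax6, Gfap, Olig2, Sox10, S100b and Foxd3 were under 0.5 CPM in every line. Of the 6 tested markers of this list, 4 had log2 fold changes below 0 and 2 above. In edgeR 0 of the 6 passed (3 with an unadjusted p under 0.05, and 2 in DESeq2). Over all tested genes, edgeR called 1.90% and 15.5% had an unadjusted p under 0.05, and DESeq2 called 6.17%. The part of neural cells in the level of Pcdhac2 was not tested.

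**Figure D2:**
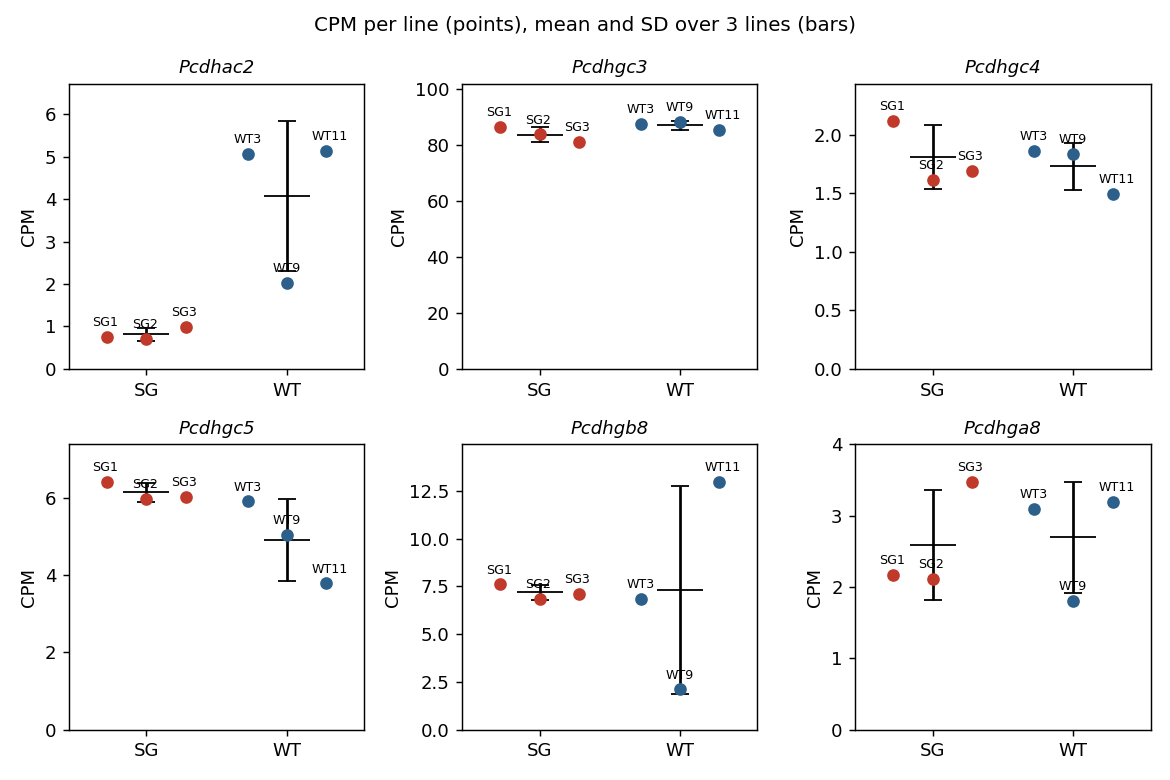
CPM of 6 named members in each SG line (red, left) and WT line (blue, right), with the mean and SD over 3 lines. Pcdhac2 is lower in all SG lines (0.705 to 0.993 CPM) than in all WT lines (2.03 to 5.13 CPM), Pcdhgc3 is near 85 CPM in every line, and Pcdhgb8 spreads from 2.11 to 12.99 CPM within WT.

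The level of Pcdhgc3 (ENSMUSG00000102918, chromosome 18, 37806364 to 37841873) differed little between lines and stood far above that of every other member. This C-type isoform is broadly expressed and binds the Wnt pathway scaffold Axin1. It was at 86.4, 83.8 and 81.04 CPM in SG lines and at 87.6, 88.4 and 85.3 CPM in WT lines, which overlap. The difference was -0.06 on the log2 scale, with an SE of 0.04 and an adjusted p of 0.546. It took 47.7% ± 1.38 of gamma counts in SG and 48.99% ± 2.11 in WT lines. Per unique kb it averaged 46.9 CPM over the 6 lines, against 4.34 CPM for Pcdhgb6, the gamma gene next in level. Over its whole annotated length the level of Pcdhgc3 would be 15.5 CPM per kb, still the highest of the family.

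The other C-type gamma genes were lower. Pcdhgc4, which neurons need for survival in mice, was at 2.12, 1.61 and 1.70 CPM in SG and 1.86, 1.83 and 1.499 CPM in WT lines, and the genotypes overlapped (log2 fold change 0.06, SE 0.17). Pcdhgc5 was at 6.42, 5.97 and 6.03 CPM in SG lines and at 5.90, 5.05 and 3.78 CPM in WT lines. Its SG and WT values did not overlap, WT11 was the lowest, and it did not pass the threshold (log2 fold change 0.32, SE 0.16, adjusted p = 0.387).

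The A-type and B-type gamma genes, which alternate along the cluster, were all expressed. Per unique kb, 11 A-type genes ranged from 0.49 to 3.44 CPM with a median of 1.41, and 7 B-type genes from 0.726 to 4.34 CPM with a median of 2.90. The highest A-type value was that of Pcdhga11, where antisense overlap leaves 1256 bp of unique exon. Over its whole length its level would be 0.907 CPM per kb, rank 8 instead of 4 in the gamma cluster. The highest after Pcdhgc3 was Pcdhgb6, with 11.02, 10.6 and 11.5 CPM in SG and 11.7, 12.3 and 9.66 CPM in WT lines. Pcdhgb2 followed, with 8.77, 9.48 and 10.2 CPM in SG and 9.70, 9.37 and 10.3 CPM in WT lines. Both overlapped between genotypes. Summed over the cluster, gamma transcripts stood at 175.7 ± 2.93 CPM in SG lines, against 177.9 ± 4.69 CPM in WT lines (SD, n = 3 each), so the genotypes differed by less than the spread between lines.

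In the beta cluster, the genes at its far end carried most of the reads. The last 7 genes in chromosomal order, Pcdhb16 to Pcdhb22, lay between 0.133 and 0.598 CPM per unique kb and took between 72.4% and 80.2% of beta counts in a line. The first 15 lay between 0.0012 and 0.181 CPM per unique kb. The highest was Pcdhb22, with 4.04, 3.59 and 3.87 CPM in SG and 3.22, 4.71 and 2.65 CPM in WT lines. Pcdhb17 had 2.92, 2.60 and 2.93 CPM in SG and 2.56, 2.75 and 2.37 CPM in WT lines. Pcdhb19 had 1.72, 1.54 and 1.85 CPM in SG and 1.22, 1.74 and 1.30 CPM in WT lines. The genotypes overlapped in all 3 of these genes.

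Most tested beta genes had a higher mean in SG lines, but none passed the threshold. The cluster summed to 15.2, 14.6 and 16.02 CPM in SG lines and to 12.8, 15.7 and 11.6 CPM in WT lines, so that WT9 fell within the SG range and WT3 and WT11 below it. Of the 14 beta genes tested, 11 had log2 fold changes above 0 and 3 below. Their median was 0.17, against 0.00 over all tested genes, and edgeR called 0, against 1.90% of all tested genes. In 1 the unadjusted p was under 0.05, against 15.5% of all tested genes. DESeq2, which gave no adjusted p for 2, called 0, against 6.17% of all genes with an adjusted p there. WT11 was the lowest line in 7 of the 14, and in 6 of the last 7 genes of the cluster.

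The 5 largest positive log2 fold changes of the family were all in beta genes. Pcdhb5 was at 0.689, 0.909 and 0.736 CPM in SG and 0.600, 0.520 and 0.383 CPM in WT lines, with no overlap (log2 fold change 0.64, SE 0.24, adjusted p = 0.253). Pcdhb21 was at 0.634, 0.580 and 0.753 CPM in SG and 0.480, 0.688 and 0.267 CPM in WT lines, which overlap (log2 fold change 0.45, SE 0.34). Pcdhb18, at 0.888, 1.003 and 1.096 CPM in SG and 0.840, 0.856 and 0.533 CPM in WT lines, did not overlap and missed the threshold (log2 fold change 0.42, SE 0.23, adjusted p = 0.452). These 3 had their lowest value in WT11. Pcdhb7, at 0.381, 0.3604 and 0.342 CPM in SG and 0.320, 0.199 and 0.300 CPM in WT lines, had a log2 fold change of 0.42 (SE 0.27). Pcdhb20, at 0.797, 0.893 and 0.633 CPM in SG and 0.600, 0.734 and 0.466 CPM in WT lines, had a log2 fold change of 0.37 (SE 0.25). Neither passed, and Pcdhb7 separated the genotypes while Pcdhb20 did not.

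On the negative side, Pcdhac2 was followed by small values. Pcdhb2 was at 0.362, 0.251 and 0.3595 CPM in SG and 0.260, 0.581 and 0.350 CPM in WT lines (log2 fold change -0.32, SE 0.35). Pcdhgb1 was at 1.72, 1.87 and 1.58 CPM in SG and 2.04, 1.96 and 2.27 CPM in WT lines, with no overlap (log2 fold change -0.28, SE 0.14, adjusted p = 0.417). Pcdhb4 was at 0.199, 0.094 and 0.274 CPM in SG and 0.220, 0.275 and 0.167 CPM in WT lines (log2 fold change -0.24, SE 0.43). Of these, Pcdhgb1 alone separated the genotypes. Pcdhgb4 was at 3.77, 4.18 and 4.09 CPM in SG and 3.88, 4.02 and 5.31 CPM in WT lines (log2 fold change -0.13, SE 0.14), with WT11 the highest.

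**Figure D3:**
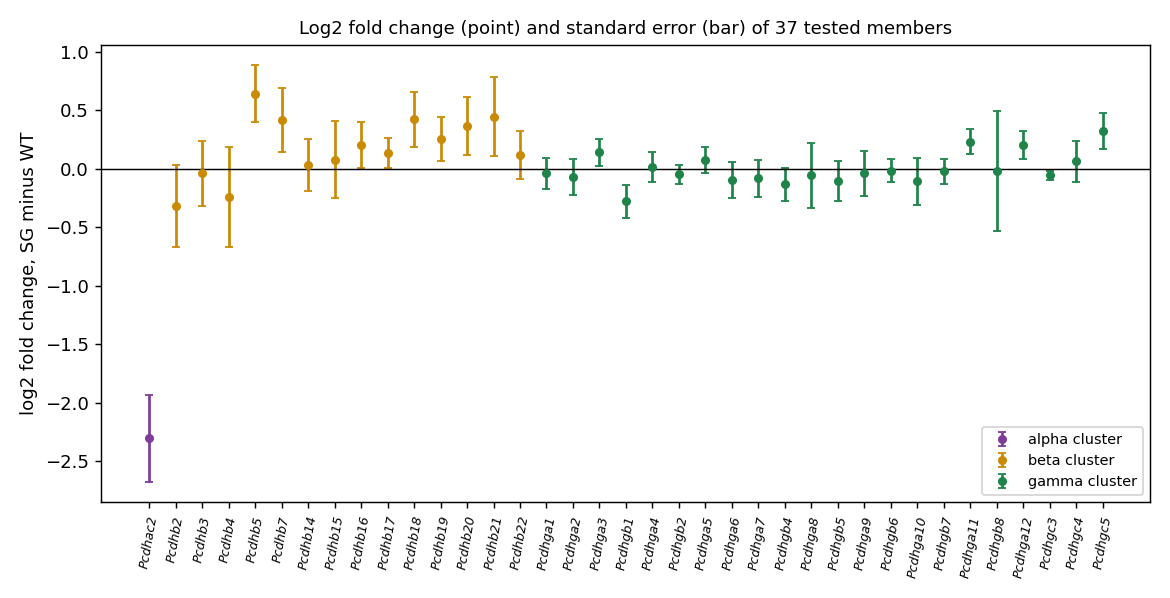
Log2 fold change, SG minus WT, of the 37 members past the filter on low counts, in chromosomal order, with the SE as a bar. Pcdhac2 lies at -2.31, and the other 36 lie between -0.32 and 0.64.

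Across the family, 37 of 58 members passed the filter on low counts: 1 alpha, 14 beta and 22 gamma genes. A single member, Pcdhac2, passed the threshold, which is 2.70% of those tested, while 1.90% of all tested genes were called. As Pcdhac2 was known beforehand, nothing is read from this share. No member was called higher in SG by edgeR or by DESeq2, against 0.809% of all genes called higher by edgeR. The 22 gamma genes gave 0 calls in edgeR or DESeq2 and 0 with an unadjusted p under 0.05, where 15.5% of all tested genes had one. The values of the genotypes did not overlap in 7 of the 37 members (18.9%), against 21.2% of all tested genes. The median log2 fold change was -0.02 over the tested members and 0.00 over all tested genes.

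The spread between lines of the same genotype did not enter the choice of the family. It is given here as edgeR's dispersion of a gene divided by the trend of genes of like abundance. The median over the 37 members was 0.574, against 0.596 over all tested genes, and 28 members (75.7%) lay under 1, against 79.0% of all genes. Most clustered protocadherins thus varied between embryos about as little as other transcripts of their level. The 3 members with the largest values were Pcdhgb8 (10.8), Pcdhac2 (2.72) and Pcdhga8 (1.88), and the 95th percentile of all tested genes was 2.51.

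**Figure D4:**
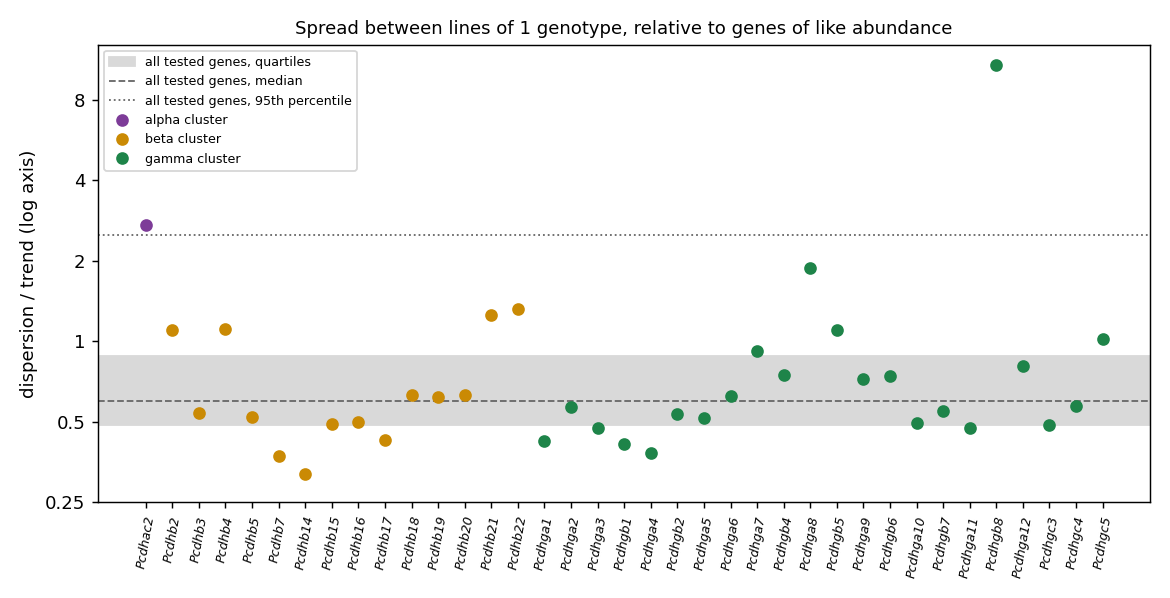
Dispersion between lines of the same genotype divided by the trend at the gene's abundance (log axis), for the 37 tested members, with the median, the quartiles and the 95th percentile of all tested genes. Pcdhgb8 stands at 10.8 and Pcdhac2 at 2.72, while the median of the members is 0.574.

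Pcdhgb8 (ENSMUSG00000103081, chromosome 18, 37761801 to 37841870), a B-type gamma gene that the annotation lists as a polymorphic pseudogene, differed between WT lines more than any other member did. It had 420, 437 and 416 reads in SG1, SG2 and SG3, and 342, 138 and 780 reads in WT3, WT9 and WT11. In CPM these were 7.61, 6.85 and 7.12 in SG lines, and 6.84, 2.11 and 12.99 in WT lines. WT3 thus stood at the level of the SG lines, with WT9 far below them and WT11 far above, and the highest line was 6.16 times the lowest. For the other 21 gamma genes this ratio lay between 1.09 and 1.93. WT9 and WT11 deviated in opposite directions, and the genotype means were close (log2 fold change -0.02, SE 0.51).

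Of the 16068 tested genes, 52 (0.324%) had a dispersion over trend as high as that of Pcdhgb8. The value fell to 2.42 without WT9, 5.65 without WT11 and 2.85 without both lines with Xist. The flanking gamma genes did not follow it: Pcdhga11 was at 4.24, 4.92 and 4.83 CPM in SG and 3.78, 4.22 and 3.90 CPM in WT lines, and Pcdhga12 at 9.01, 8.54 and 7.28 CPM in SG and 7.84, 7.49 and 6.21 CPM in WT lines. In the first exon of Pcdhgb8, 9.18% of stretches of 50 bases also occur in another member. The gamma genes with larger shares were Pcdhgb1, Pcdhgb2, Pcdhgb6 and Pcdhgb4 (16.85%, 16.43%, 11.92% and 10.4%). Their dispersions over trend were 0.413, 0.535, 0.741 and 0.750. Whether misplaced reads add to the spread of Pcdhgb8 was not tested. Pcdhga8, an A-type gamma gene, had 2.17, 2.12 and 3.48 CPM in SG1, SG2 and SG3, and 3.10, 1.80 and 3.20 CPM in WT3, WT9 and WT11, so that it varied in both genotypes.

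**Figure D5:**
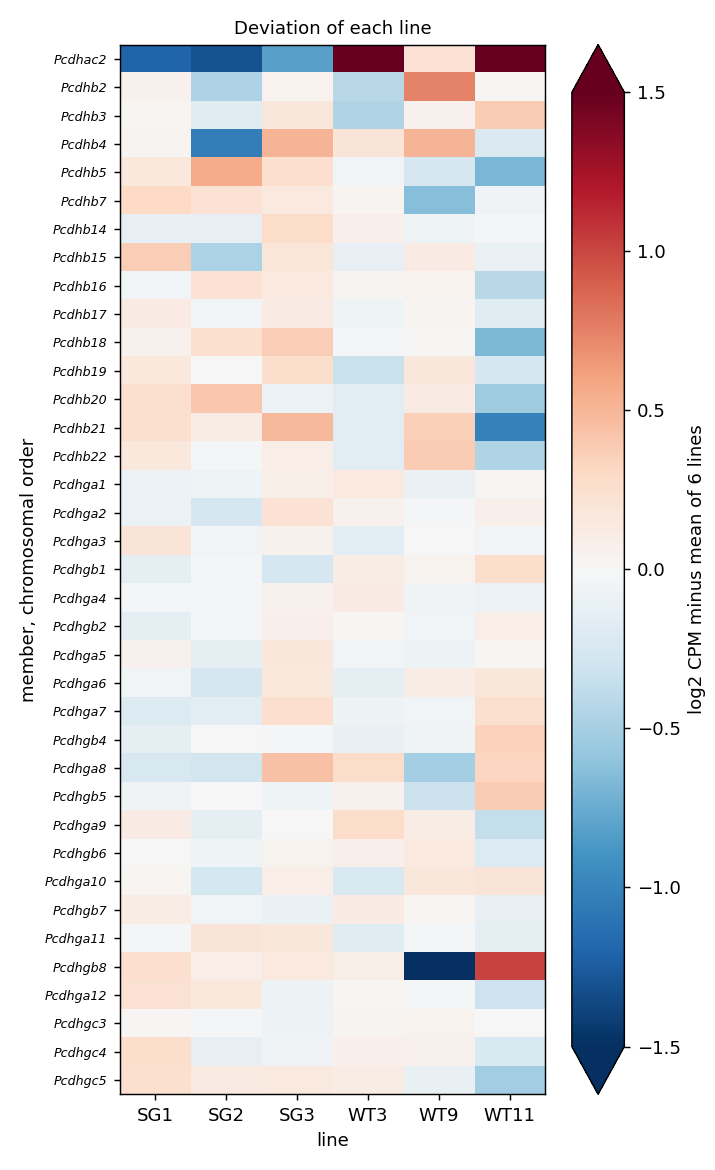
Log2 CPM of each tested member in each line minus the mean of the 6 lines, in chromosomal order from top to bottom (colours end at 1.5 in either direction). Pcdhac2 divides SG from WT lines, Pcdhgb8 sets WT9 (2.11 CPM) and WT11 (12.99 CPM) apart, and WT11 is lowest in 6 of the last 7 beta genes.

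Genes that control or carry out protocadherin functions were examined from lists drawn up by their known roles, with earlier results of these data known. The 26 genes of transcription and chromatin at the clusters included CTCF, the cohesin subunits and loaders, the DNA methyltransferases and SMCHD1, which keeps clustered protocadherins silent. Of the 25 tested, 0 passed in edgeR, against 1.90% of all genes, and 0 in DESeq2, against 6.17% of all genes with an adjusted p there. In edgeR 1 had an unadjusted p under 0.05, against 15.5% of all tested genes. The smallest unadjusted p values were those of Rest, a repressor of neuronal genes, at 47.4 ± 0.257 CPM in SG lines, against 43.7 ± 2.25 CPM in WT lines (log2 fold change 0.12, SE 0.04, adjusted p = 0.252), and of Ehmt1, a histone methyltransferase, at 76.3 ± 0.417 CPM in SG lines, against 73.1 ± 1.26 CPM in WT lines (log2 fold change 0.06, SE 0.03). Ctcf itself was at 95.3 ± 0.78 CPM in SG lines, against 100.7 ± 4.56 CPM in WT lines (log2 fold change -0.08, SE 0.04).

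Among signalling partners and processing enzymes, 1 of 21 tested genes rose and 1 fell, against 0.809% of all tested genes called higher and 1.10% called lower. DESeq2 called 2 (6.17% of all genes), and 6 had an unadjusted p under 0.05 (15.5% of all genes). Ptk2b, which encodes the kinase PYK2 that alpha and gamma protocadherins bind and inhibit, fell to 14.8, 10.6 and 9.79 CPM in SG lines, against 23.97, 24.4 and 25.7 CPM in WT lines. Its log2 fold change was -1.08 (SE 0.14, adjusted p = 0.018 in edgeR). Ret, a receptor tyrosine kinase that phosphorylates clustered protocadherins in neurons, rose to 3.24, 3.29 and 3.41 CPM in SG lines, against 1.26, 2.09 and 1.53 CPM in WT lines. Its log2 fold change was 1.02 (SE 0.19, adjusted p = 0.045 in edgeR). Neither gene overlapped between genotypes. Both calls were lost without SG2 (edgeR adjusted p = 0.103 for Ptk2b and 0.171 for Ret), WT3 (0.0883 and 0.129) or WT11 (0.0881 and 0.163), and that on Ret also without SG1 (0.0569) or SG3 (0.0844). Axin1, the partner of Pcdhgc3, was at 77.2 ± 0.66 CPM in SG lines, against 81.7 ± 1.53 CPM in WT lines and did not pass (adjusted p = 0.294).

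None of the genes around the clusters passed the threshold. Of 40 tested genes within 1 Mb, 0 passed in edgeR (2 with an unadjusted p under 0.05, and 0 in DESeq2), with a median log2 fold change of 0.04. Over all tested genes 1.90% passed in edgeR, 6.17% in DESeq2 and 15.5% had an unadjusted p under 0.05. The 2 of smallest p were Zmat2, upstream of the alpha cluster, at 51.96 ± 1.49 CPM in SG lines, against 57.5 ± 1.94 CPM in WT lines (log2 fold change -0.15, SE 0.04, adjusted p = 0.128), and Fchsd1, at 5.40 ± 0.265 CPM in SG lines, against 4.38 ± 0.274 CPM in WT lines (log2 fold change 0.30, SE 0.10, adjusted p = 0.184). Nonclustered protocadherins lie outside the clusters, and of 10 tested 1 rose and 1 fell in edgeR, beside the same share of 1.90% over all genes. DESeq2 called 3, and 7 had an unadjusted p under 0.05. Pcdh10 fell to 7.54, 6.11 and 5.55 CPM in SG lines, against 23.8, 16.1 and 25.3 CPM in WT lines (log2 fold change -1.76, edgeR adjusted p = 0.0106), with WT9 again the lowest WT line. Pcdh17 rose to 4.08, 5.22 and 5.75 CPM in SG lines, against 1.80, 2.83 and 1.65 CPM in WT lines (log2 fold change 1.25, edgeR adjusted p = 0.0408). Both calls were lost without SG2 (edgeR adjusted p = 0.0774 for Pcdh10 and 0.169 for Pcdh17), WT3 (0.0579 and 0.16) or WT11 (0.0508 and 0.14), and that on Pcdh17 also without SG3 (0.0816).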

How the data were processed

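Per the submitters' processing notes, reads were handled with Trimmomatic 0.36, STAR 2.5.2b on GRCm38 and featureCounts of Subread 1.5.2. The deposited files hold raw counts of reads per gene for 1 line each, with 0 rows that name no gene. Annotation release, strand setting and handling of multimapping reads are not given in the sources used here, nor are litter, day of culture or sequencing run. Symbols came from GENCODE M21 (48970 of 49315 identifiers), where all 58 members had the same start and end as in the files; 2 identifiers carry the symbol Pcdha11.

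Counts were filtered with filterByExpr, scaled by TMM and tested, SG against WT, 2-sided, with edgeR 4.0.16 (quasi-likelihood, no covariate, R 4.3.3). P-values were adjusted by Benjamini-Hochberg over 16068 genes, with a threshold of 0.05. CPM use the TMM-scaled library size. SE is the log2 fold change over the square root of F. A p-value here reflects how lines from different embryos vary. On counts simulated from these means and dispersions, 68.7%, 91.0% and 100% of genes changed 1.5-fold, 2-fold and 4-fold were called, with 11 of 184 calls false. The changed genes were drawn only from those with an average log2 CPM above 0. Recovery was thus not simulated for weaker genes, such as Pcdhb4 and Pcdhb7 (0.205 and 0.317 CPM on average).

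The members, lists and tests were chosen with earlier results of these data known. Per-line values are given for members past the threshold, the 3 highest per unique kb in each cluster, the C-type genes, the 3 of largest dispersion over trend and the 5 largest log2 fold changes in each direction; Pcdha1, Pcdhga11, Pcdhga12, Pcdh10, Pcdh17, Ctcf, Axin1, Sox2 and the other single markers were added after their values were seen. Alternatives were other scalings, no filter, a robust prior, DESeq2 1.42.0, Xist as a covariate and fits without single lines or both lines with Xist. In the progenitor and glial marker list, 1 marker is not reported here.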

Additional observations from a re-analysis of the deposited data

How the results depend on the processing

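No paired analysis was possible because the genotypes share a single line number. The number of members called lower in SG was 1 in each fit with all 6 lines and 0 to 1 when single lines were left out, and the number called higher was 0 in all 14 alternatives. The share of all tested genes called was 3.33% with no count filter, 6.17% with DESeq2, 4.36% without the lines with Xist and 0.0184% (without SG2) to 3.53% (without SG1) without single lines, with 0.146% without WT3 and 0.177% without WT11. For signalling partners 0 to 2 genes were called without single lines. The log2 ratio of the gamma sum was -0.052 without the lines with Xist, against -0.018 with all lines, and the alpha and beta sums kept their direction in each alternative run. The alpha sum was mostly Pcdhac2, which held 68.9% to 96.9% of alpha counts in a line. Without Pcdhac2 its log2 ratio over all lines was -0.21, and the genotypes overlapped.

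Log2 fold changes of some named members changed sign, and the cause was not tested. Among them were Pcdhb2 and Pcdhb4, at -0.32 and -0.24 with all lines. Without the lines with Xist, Pcdhgb6 was at 0.058 and Pcdhgc4 at -0.019, and with Xist as a covariate Pcdhgb8 was at 0.19. Without single lines the ranges were -0.054 to 0.39 for Pcdhb22, -0.11 to 0.055 for Pcdhgb6, -0.10 to 0.0037 for Pcdhgb2, -0.065 to 0.14 for Pcdhgc4, -0.47 to 0.70 for Pcdhgb8, -0.33 to 0.089 for Pcdhga8, -0.53 to 0.072 for Pcdhb2, -0.61 to 0.10 for Pcdhb4 and -0.21 to 0.024 for Pcdhgb4. None of these passed in any alternative. Pcdhac2 stayed between -2.64 and -2.10, with adjusted p between 8.96e-09 (DESeq2) and 0.138. Its dispersion over trend was 0.657 without WT9 and 0.806 without the lines with Xist, and these values, the like values of Pcdhgb8 and the level per whole length were added after seeing the data. Alpha genes other than Pcdhac2 had too few reads for a change to be detected.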
